A study of Rattus norvegicus with 8 samples.

Results

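Galanin (Gal, ENSRNOG00000015156), vasoactive intestinal polypeptide (Vip, ENSRNOG00000018808) and pituitary adenylate cyclase-activating polypeptide, PACAP (Adcyap1, ENSRNOG00000049882) were followed by name as 3 of the 32623 genes in a count table of the rat dorsal root ganglion (DRG), and all 3 were among the 16988 genes with enough counts to be tested. The table holds 8 libraries from adult, gonadally intact Sprague-Dawley rats, with 4 groups of 2 rats: naïve males and females, and males and females with CCI. In chronic constriction injury (CCI) the sciatic nerve is loosely tied with silk sutures, and the ipsilateral L4-L6 DRGs of 1 rat, taken on day 14, made up each library. Naïve rats had no surgery, so no sham group separates nerve injury from the operation. CCI rats without mechanical hypersensitivity were not used by the authors, nor was 1 naïve rat that responded at an unusually low mechanical threshold. The stage of estrus of the females was not identified.

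The 3 genes encode peptide precursors that sensory neurons cut, store in dense core vesicles and release. Galanin acts on galanin receptors that mostly couple to inhibitory G proteins, while VIP and PACAP are close relatives that share receptors and raise cAMP through adenylyl cyclase. In intact DRGs galanin and VIP are scarce, PACAP is present in small-diameter neurons, and all 3 are known for induction in sensory neurons after axotomy, when peptide expression moves away from the pattern of the intact neuron.

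Promoter sequence is shown for Gal and Vip because both hold, within 100 bases before the start, the TGACG core of the cAMP response element, a site of the CREB and ATF family of factors. The sequences are from RefSeq (build GRCr8), 5′ to 3′ on the gene's own strand, with the core in capitals. The reads were aligned to another build, rn6, so these positions are not those of the count table.

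Gal, 250 bases before the start, chr1:210084573-210084822, minus strand: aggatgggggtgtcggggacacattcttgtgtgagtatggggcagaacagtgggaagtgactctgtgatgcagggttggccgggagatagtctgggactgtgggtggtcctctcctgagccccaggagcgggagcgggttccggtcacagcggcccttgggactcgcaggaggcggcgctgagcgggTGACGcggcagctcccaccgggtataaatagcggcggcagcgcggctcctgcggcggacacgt
Vip, 30 bases, from 109 to 80 bases before the start, chr1:44470371-44470400, plus strand: ggatcaccactgTGACGtctttcgaggagc

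The core began 63 bases before the start in Gal and 97 bases before it in Vip. Across 33469 promoters, each from 250 bases before to 50 bases after the start and searched on both strands, the core TGACG was found in 21.2%, and the full palindrome TGACGTCA, which contains it, in 1.83%. The AP-1 site TGANTCA was found in 7.33% and the STAT site TTCNNNGAA in 8.87%. None of the last 3 was found in the window of Gal or Vip, and no motif of the 4 was found in that of Adcyap1, whose listed start lies 12623 bases inside the RefSeq gene. The listed start of Vip lies 248 bases inside the gene. A match of letters is a description and not a binding site.

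Total counts per library ranged from 39489103 to 60818457, and the libraries differed in cell type markers as well as in sex and injury. Levels are given as counts scaled to library size (CPM) after edgeR's TMM scaling, and a mean is given ± SD (n = 2 rats). A change is called when edgeR's quasi-likelihood test, adjusted by the Benjamini-Hochberg method over all genes tested, gives p under 0.05 and an absolute log2FC above 0.5. With 2 rats per group, exact permutation of a single gene reaches no p below 0.333, and every adjusted p draws on a spread shared across genes. The paper's methods name 2 sequencing batches, describe a check in which samples of both were run again in 1 lane, and do not give the batch of a library, so the part of batch in these values was not tested. The columns of replicate 1 of both male groups carry an extra letter whose meaning is not given, and the same-numbered libraries of naïve and CCI males deviated together (r = 0.731 across genes). In these bulk DRGs, a change in the number of cells that express a peptide and a change in the RNA of each cell cannot be told apart either.

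Gal was measured at 3.56 and 3.76 CPM in the 2 naïve males and at 21.4 and 21.6 CPM in the 2 CCI males, from 186, 205, 1248 and 1049 counts. In females it was 6.55 and 5.01 CPM in naïve rats and 43.3 and 56.5 CPM in CCI rats, from 310, 212, 1674 and 2207 counts. Both CCI groups lay above all 4 naïve rats, and both CCI females lay above both CCI males.

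Vip had few reads before injury. The naïve males had 14 and 9 counts (0.268 and 0.165 CPM) and the naïve females 22 and 26 counts (0.465 and 0.615 CPM). The CCI males had 665 and 508 counts (11.4 and 10.5 CPM) and the CCI females 1046 and 1034 counts (27.0 and 26.5 CPM). The 4 groups of Vip did not overlap, although counts this low in naïve rats leave their own level imprecise by counting error alone.

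Adcyap1 had from 1604 to 8206 counts in a library. It was 53.1 and 58.5 CPM in naïve males and 141 and 145 CPM in CCI males. In females it was 46.6 and 37.9 CPM in naïve rats and 158 and 153 CPM in CCI rats. The naïve and CCI rats were again apart, and here the naïve females were the lowest group. Group means ran from naïve males through naïve females and CCI males to CCI females for Gal and Vip, and from naïve females through naïve males and CCI males to CCI females for Adcyap1.

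**Figure D1:**
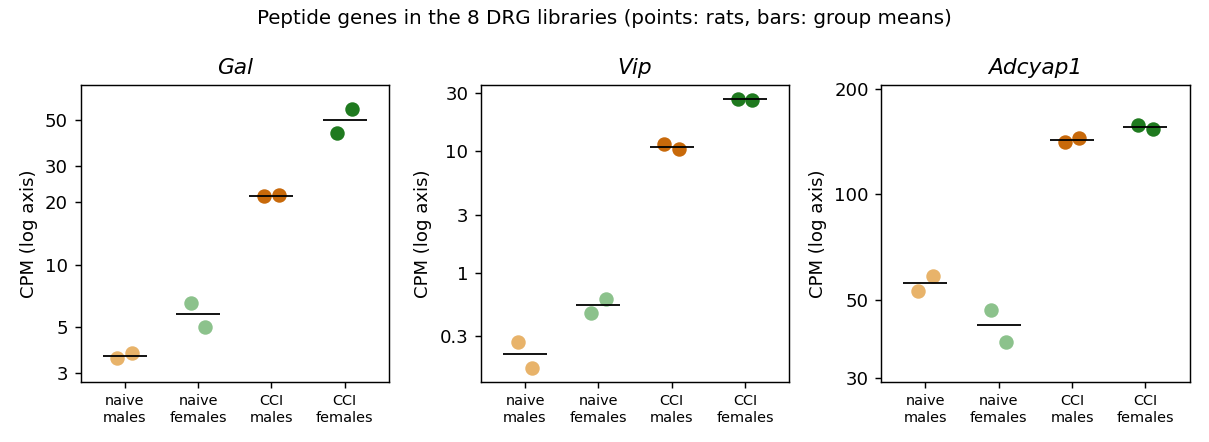
CPM of Gal, Vip and Adcyap1 (log axes, each gene on its own scale) in the 4 groups, with 1 point per rat and a bar at the mean of 2 rats. All CCI rats lie above all naïve rats for each gene, and the CCI females lie above the CCI males, widely for Gal (43.3 and 56.5 against 21.4 and 21.6 CPM) and Vip and narrowly for Adcyap1.

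All 3 genes rose after CCI in males, where 21.6% of the genes tested were called, 9.05% higher and 12.5% lower. Vip rose 50.3-fold (log2FC 5.65, SE 0.255, 95% interval 4.99 to 6.31, adjusted p = 0.00565 by edgeR's quasi-likelihood test), Gal 5.89-fold (log2FC 2.56, SE 0.0899, interval 2.33 to 2.79, adjusted p = 0.00453) and Adcyap1 2.56-fold (log2FC 1.36, SE 0.0782, interval 1.15 to 1.56, adjusted p = 0.00565). By the size of log2FC among 16988 genes, Vip ranked 14, Gal 99 and Adcyap1 281 in males. Of all genes tested 72.8% had no overlap between naïve and CCI males, and 36.3% had every CCI male higher, so separation of the groups is in itself common in this comparison. The 3 calls were lost without the library of CCI male 1, which leaves 1 rat in that group. So were the calls of every pathway gene described below. In that fit the log2FC of Gal, Vip and Adcyap1 were 2.57, 5.59 and 1.38.

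All 3 genes also rose in females, where the background of calls was lower, at 5.69% of genes, with 3.69% higher and 340 genes lower. Vip rose 49.3-fold (log2FC 5.62, SE 0.165, 95% interval 5.24 to 6.004, adjusted p = 8.12e-06), Gal 8.54-fold (log2FC 3.09, SE 0.171, interval 2.70 to 3.49, adjusted p = 0.000179) and Adcyap1 3.65-fold (log2FC 1.87, SE 0.109, interval 1.62 to 2.12, adjusted p = 0.000241). In rank of log2FC Vip was 22, Gal 57 and Adcyap1 135 of 16988. Groups without overlap made up 59.5% of genes, and 30.5% had every CCI female higher. All 3 calls held without any 1 of the 4 female libraries, with adjusted p of at most 0.0197.

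The question of whether the change differed between the sexes was put to an interaction term over all 8 libraries, by which 1.59% of genes were called, 1.04% with a higher and 0.547% with a lower value in females. None of the 3 peptides passed it. The log2FC of Vip in females minus that in males was -0.02 (95% interval -0.46 to 0.43, adjusted p = 0.967 by edgeR), an interval that leaves room for a difference of about 0.4 either way. Those of Gal (0.55, interval 0.03 to 1.07, adjusted p = 0.189) and Adcyap1 (0.52, interval 0.19 to 0.85, adjusted p = 0.0908) had intervals above 0 before adjustment, and DESeq2 on the same libraries gave Adcyap1 an adjusted p of 0.0128. The larger change of Gal and Adcyap1 in females was therefore not called, and for Adcyap1 this depended on the tool.

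Before injury the peptides did not pass the test between the sexes, a comparison in which 0.0706% of genes were called and 4345 genes had an unadjusted p under 0.05. Naïve females against naïve males had a log2FC of 0.66 for Gal (95% interval 0.17 to 1.16, adjusted p = 0.133 by edgeR's test), 1.31 for Vip (0.12 to 2.51, adjusted p = 0.174) and -0.40 for Adcyap1 (-0.71 to -0.08, adjusted p = 0.142). The naïve sexes did not overlap for any of the 3, as for 60.0% of all genes. In a fit over all 8 libraries Gal and Vip passed, with adjusted p of 0.0485 and 0.0273 by edgeR. The adjusted p of Adcyap1 was as low as 0.0485 among the alternative fits, where its log2FC did not pass the size threshold.

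After injury Gal and Vip were higher in females than in males, in a comparison that called 1.06% of genes, 0.524% higher and 0.536% lower in females. The CCI sexes did not overlap for 51.2% of genes, and for 24.7% the females were higher. Gal was 49.9 ± 9.34 CPM in CCI females and 21.5 ± 0.186 CPM in CCI males, 2.32-fold higher (log2FC 1.22, SE 0.132, 95% interval 0.89 to 1.54, adjusted p = 0.0211). Vip was 26.7 ± 0.408 CPM against 10.9 ± 0.645 CPM, 2.45-fold higher (log2FC 1.29, SE 0.0803, interval 1.10 to 1.49, adjusted p = 0.00369). Adcyap1 was 155 ± 3.08 CPM against 143 ± 2.77 CPM, with a log2FC of 0.13 and an interval of -0.03 to 0.28 (adjusted p = 0.352). Those values did not separate the sexes by the test, and the interval leaves out a difference as large as that of Gal or Vip.

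Each sex difference after CCI lost its call without 1 of the female libraries, which leaves that arm with 1 rat assumed to vary like the other group. Without CCI female 2, the higher of the pair for Gal, its log2FC was 1.01 (adjusted p = 0.0611). For Vip the log2FC was 1.28 without CCI female 1 (adjusted p = 0.0704) and 1.31 without CCI female 2 (adjusted p = 0.0604). For Gal and Vip the difference between the sexes after CCI had the same sign as the difference in naïve rats, which was not called.

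**Figure D2:**
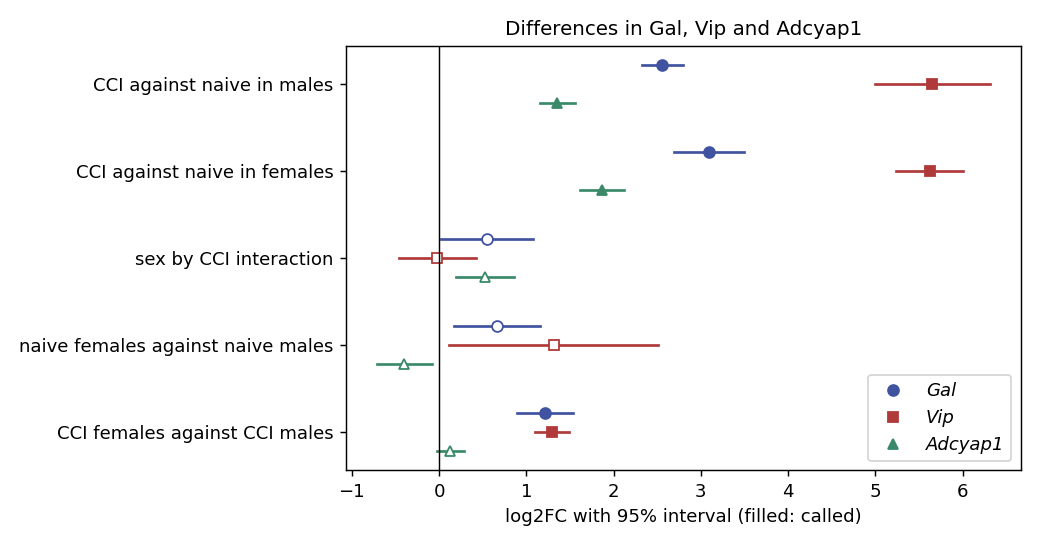
Log2FC of Gal, Vip and Adcyap1 (horizontal axis, with 95% intervals as lines) in the 5 comparisons, with filled symbols for called differences. The CCI effect is called in both sexes for all 3 genes (from 1.36 to 5.65), the interaction for none, and the difference between CCI females and CCI males for Gal (1.22) and Vip (1.29) only.

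Of the 6 receptors for the 3 peptides, 1 could be tied to an identifier, the galanin receptor Galr1 (ENSRNOG00000016654). Its symbol came from tables of genes that passed the study's own tests on the same rats. Galr1 was thus in part selected by how it moved, and its calls are no independent evidence. It was 5.58 and 7.34 CPM in naïve males, 13.997 and 13.9 CPM in CCI males, 6.98 and 6.08 CPM in naïve females, and 7.47 and 7.65 CPM in CCI females. The CCI males stood above the other 3 groups, and the other 3 groups lay between 5.58 and 7.65 CPM. Galr1 rose in males (log2FC 1.11, SE 0.160, adjusted p = 0.00867 by edgeR's test), with a value of 0.20 in females (interval -0.13 to 0.53, adjusted p = 0.396). After CCI it was lower in females than in males (log2FC -0.88, SE 0.0988, adjusted p = 0.0231), the opposite direction to its ligand precursor Gal. The interaction of sex and CCI for Galr1 was -0.90 (SE 0.212, adjusted p = 0.0711), and 0.0147 by DESeq2. Galr1 lost its call in males without CCI male 1 (adjusted p = 0.0609) or CCI male 2 (adjusted p = 0.0538), and lost that between CCI sexes without CCI female 1 (adjusted p = 0.191) or CCI female 2 (adjusted p = 0.141).

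Other genes of these peptides' pathway were taken from lists of 128 genes, of which 43 could be tied to an identifier and tested (none of the 8 related ligands, such as secretin, was among them). Symbols were read from tables of genes that passed the study's own tests on the same rats, so the identified genes were in part selected by how they moved, and their counts are no independent evidence of a direction. In males 32 of the 43 were called higher and 5 lower, with a median log2FC of 0.91, where 9.05% of all genes were called higher and 12.5% lower and their median was -0.01. In females 19 were called higher and 0 lower, with a median of 0.42, by edgeR, where 3.69% of all genes were called higher and 340 genes lower and the median was -0.02, while DESeq2 called 1 lower. Without the library of CCI male 1 none of the 43 passed in males in either direction, and without CCI male 2 the genes called lower fell to 3.

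Of the precursors of other neuropeptides, 10 of 20 listed were identified, and 7 of these were called higher in males (median log2FC 0.83, against 9.05% of all genes) and 1 in females (median 0.16, against 3.69% of all genes), with none called lower. By the interaction, which called 1.59% of all genes, 1 of the 10, Nts, was called. A difference between the sexes was thus not shown for the other 9. Vgf, which encodes a secreted precursor of several peptides, rose in both sexes, from 29.0 and 13.4 CPM to 113 and 64.3 CPM in males (log2FC 2.07, adjusted p = 0.0224) and from 24.1 and 26.8 CPM to 104 and 97.8 CPM in females (log2FC 1.98, adjusted p = 8.91e-05). Its call in males was lost without CCI male 1 (adjusted p = 0.0964) or CCI male 2 (adjusted p = 0.0512). Tac1, the precursor of substance P, rose in males (log2FC 1.05, adjusted p = 0.00565) and had a log2FC of 0.41 in females (adjusted p = 0.147).

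Nts, the neurotensin precursor, was 0.612 and 0.697 CPM in naïve males and 3.58 and 3.05 CPM in CCI males, but 1.48 and 1.28 CPM in naïve females and 2.02 and 2.25 CPM in CCI females. It rose in males (log2FC 2.34, adjusted p = 0.00565), had a log2FC of 0.62 in females (adjusted p = 0.167), and its change was smaller in females by the interaction (log2FC -1.71, adjusted p = 0.0483). Crh, the corticotropin-releasing hormone precursor, split the females within their groups. It was 0.127 and 2.62 CPM in naïve females and 5.56 and 0.154 CPM in CCI females, so that 1 rat of each group was high, while in males it rose from 0.0765 and 0.110 CPM to 3.99 and 3.84 CPM (log2FC 5.36, adjusted p = 0.00565). In females its log2FC was 1.07 (interval -1.93 to 4.07), -3.12 without CCI female 1 and 4.46 without naïve female 2 (adjusted p = 0.00983).

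Genes that cut, store and release peptides were called higher in males for all 7 identified (of 21 listed, median log2FC 0.84). In females 2 of 7 were called higher (median 0.38). Of all genes tested, 9.05% were called higher in males and 3.69% in females. These 7, too, had symbols from the study's own tests, so they were in part selected by how they moved. Syt4, a synaptotagmin of dense core vesicles, rose in males (log2FC 1.39, adjusted p = 0.00565) and in females (log2FC 1.25, adjusted p = 0.000333). Scg2, a granin of the vesicle core, also rose in males (log2FC 1.04, adjusted p = 0.00567) and in females (log2FC 0.59, adjusted p = 0.0101). Cadps, which primes dense core vesicles, and the prohormone convertase Pcsk2 rose in males (log2FC 0.90 and 0.84), with a log2FC of 0.38 and 0.30 in females, where neither was called. Scg2 was not called in females without CCI female 1 (adjusted p = 0.0615) or CCI female 2 (adjusted p = 0.153).

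**Figure D3:**
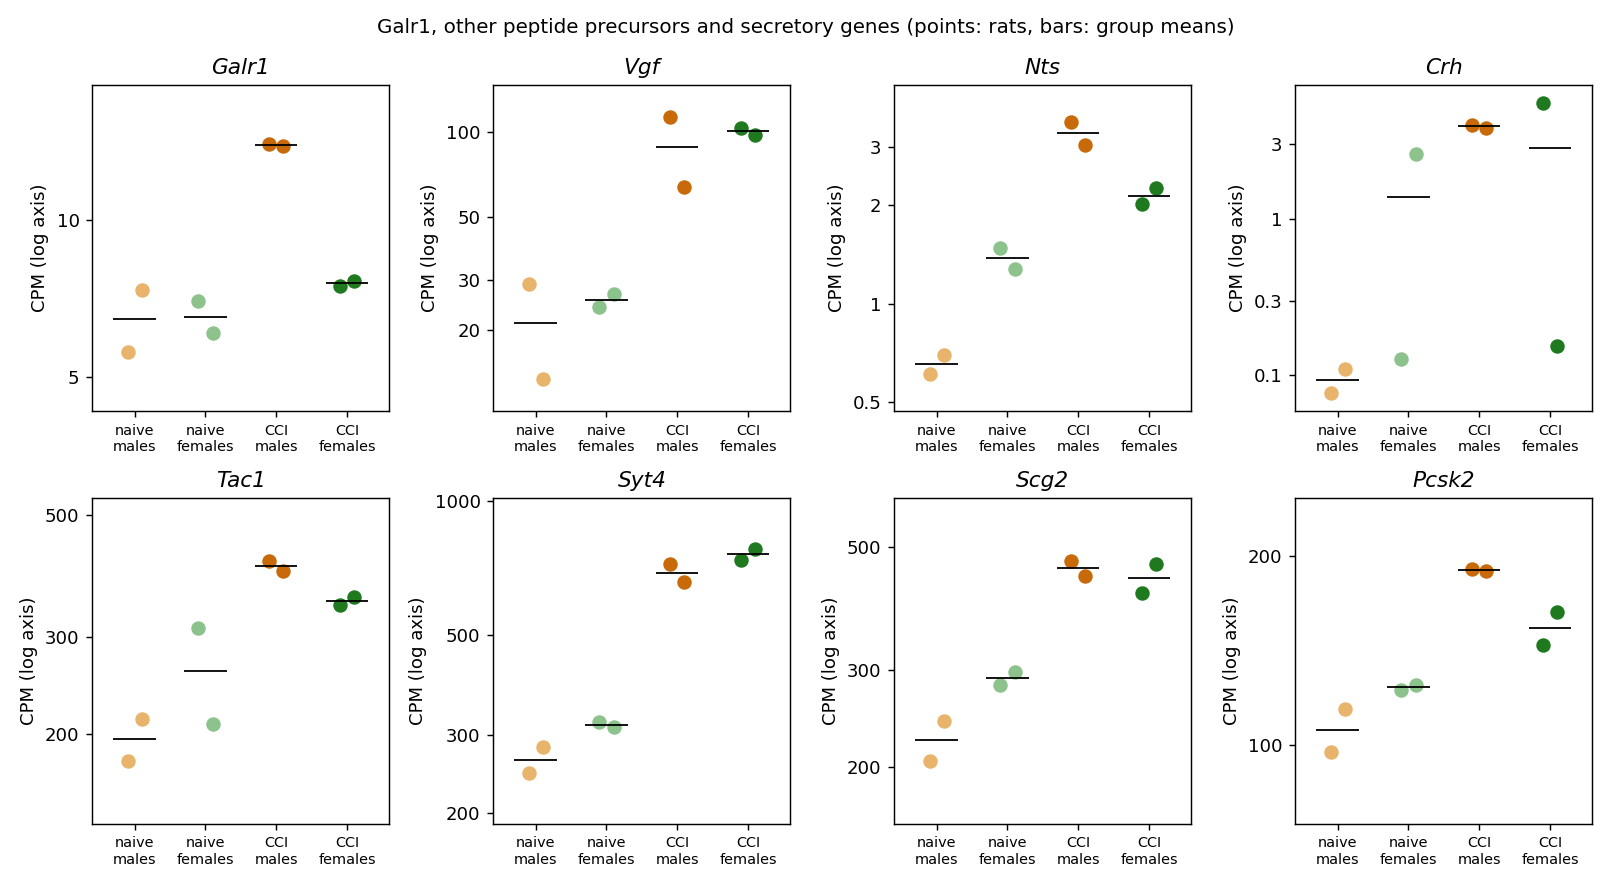
CPM (log axes, each gene on its own scale) of Galr1, of the precursor genes Vgf, Nts, Crh and Tac1 and of the secretory genes Syt4, Scg2 and Pcsk2, with 1 point per rat and a bar at the group mean. Galr1 is high in CCI males only (13.997 and 13.9 CPM), Vgf and Syt4 are high in both CCI groups, and Crh is high in 1 rat of each female group.

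Genes of cAMP signalling, the pathway that VIP and PACAP receptors engage, showed both directions in males. Of 7 identified (of 34 listed), 2 were called higher and 4 lower in males, with a median log2FC of -0.90. Among all genes tested in males, 9.05% were called higher and 12.5% lower. None was called in females (median -0.24), where 5.69% of all genes were called and Pde4c passed by DESeq2 (adjusted p = 0.0291). In males the phosphodiesterase Pde4c fell (log2FC -1.51, adjusted p = 0.00565), as did the cAMP-activated exchange factor Rapgef3 (log2FC -1.32, adjusted p = 0.00617) and the adenylyl cyclase Adcy6 (log2FC -1.02, adjusted p = 0.00565), while the cyclase Adcy2 rose (log2FC 0.99, adjusted p = 0.00565). In females the same genes had log2FC values of -0.68, -0.47, -0.24 and 0.42. The interaction of sex and CCI was called for Adcy6 (log2FC 0.79, adjusted p = 0.0430), with male values of 88.0 and 76.4 CPM before and 40.2 and 40.9 CPM after CCI, and female values of 56.2 and 60.4 CPM before and 50.8 and 48.8 CPM after.

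Among cytokine, neurotrophin and transcription factor genes tied to axotomy, 6 of 26 were identified. In males 3 were called higher and 1 lower (median log2FC 0.42), and in females 4 higher and 0 lower (median 0.80). The shares over all genes tested were 9.05% higher and 12.5% lower in males. In females 3.69% of all genes were called higher and 340 genes lower. Symbols of these 6 came from the study's own tests on the same rats, so they were in part selected by how they moved. Atf3, the injury-induced factor of the ATF family, was 11.7 and 11.04 CPM in naïve males, 67.7 and 70.9 CPM in CCI males, 12.7 and 11.8 CPM in naïve females, and 122 and 133 CPM in CCI females. Its naïve values lay between 11.04 and 12.7 CPM in both sexes, and after CCI it was higher in females than in males (log2FC 0.89, adjusted p = 0.00835 by edgeR's test). Gal and Vip had the same order after CCI, and in 24.7% of all genes both CCI females lay above both CCI males. A link between Atf3 and these peptide genes was not tested. The interaction for Atf3 was called (log2FC 0.78, adjusted p = 0.0412). Atf3 between CCI sexes was not called without CCI female 1 (adjusted p = 0.0871) or CCI female 2 (adjusted p = 0.0900).

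Socs3, a feedback inhibitor of cytokine signalling, was 5.33 and 5.47 CPM in naïve males and 5.50 and 5.45 CPM in CCI males, and went from 2.98 and 2.91 CPM to 8.14 and 6.32 CPM in females. It rose in females (log2FC 1.29, adjusted p = 0.00873), had a log2FC of 0.02 in males (adjusted p = 0.900), and its interaction was called (log2FC 1.28, adjusted p = 0.0483). Lifr, a receptor subunit for leukemia inhibitory factor, rose in both sexes (log2FC 0.95 in males and 0.70 in females). The neurotrophin receptor Ngfr rose in males (log2FC 0.82) and had a log2FC of 0.41 in females (adjusted p = 0.0224), under the size threshold. The immediate early gene Fos rose in females (log2FC 0.90, adjusted p = 0.0255) with a value of -0.32 in males, and the ciliary neurotrophic factor Cntf fell in males (log2FC -0.71, adjusted p = 0.0181) with a value of -0.20 in females. In females the calls of Socs3, Fos and Lifr were each lost without either CCI female (adjusted p from 0.0578 to 0.184), and in males those of Ngfr and Cntf without either CCI male (adjusted p from 0.0536 to 0.0967).

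Genes known to rise in injured sensory neurons were called higher for 13 of 13 identified (of 14 listed) in males and 12 of 13 in females. Their medians were 1.46 and 1.39. Of all genes tested, 9.05% were called higher in males and 3.69% in females. These 13 had symbols from the study's own tests on the same rats, so their counts were in part fixed in advance. Reg3b, a secreted lectin, had a log2FC of 4.75 in males and 5.90 in females, and Stac2, a partner of calcium channels, 4.59 and 5.11. The peptidase Ecel1 had 2.67 and 3.04, and the calcium channel subunit Cacna2d1 1.82 and 1.92, all called in both sexes. Beside these, the log2FC of Vip lay with Reg3b and Stac2 at the top, that of Gal with Ecel1 and Atf3, while that of Adcyap1 was close to Cacna2d1 in females (1.87 and 1.92) and below it in males (1.36 and 1.82). Csf1, a macrophage growth factor that was singled out after its values were seen, had a log2FC of 0.60 in males and 1.23 in females. Its interaction was called (log2FC 0.64, adjusted p = 0.0496 by edgeR), which made it, with Nts, Adcy6, Atf3 and Socs3, 1 of 5 such pathway genes. The pathway lists held 43 genes tested, and 1.59% of all genes were called by the interaction. Each of these 5 interaction calls was lost without any 1 of at least 6 of the 8 libraries.

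**Figure D4:**
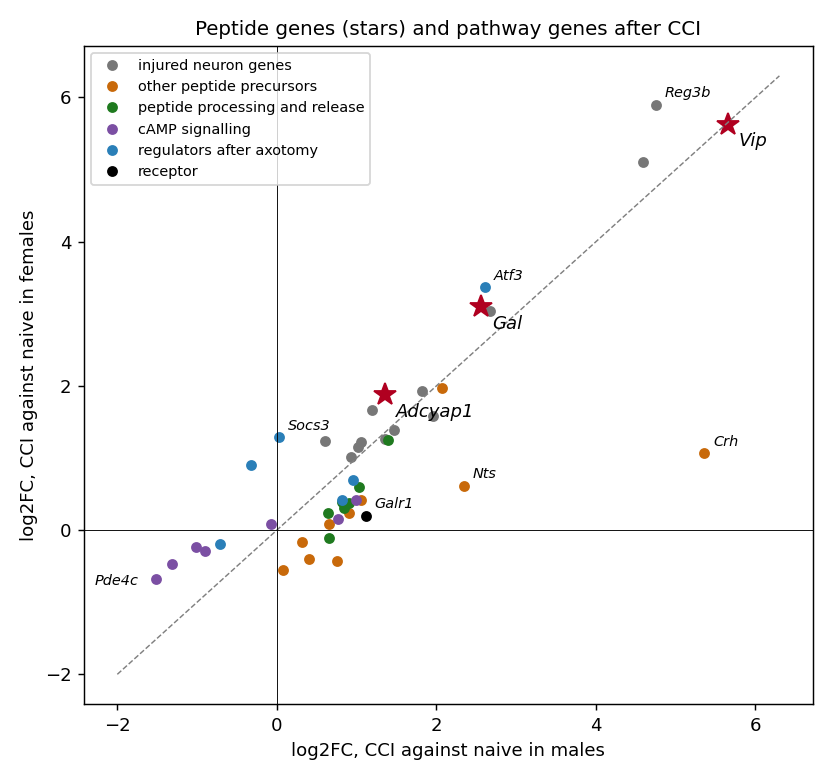
Log2FC of CCI against naïve rats in males (horizontal axis) and females (vertical axis) for Gal, Vip and Adcyap1 (stars) and 43 pathway genes (points, coloured by list), with the line of equal change dashed. Vip lies near the line (5.65 and 5.62), Gal and Adcyap1 lie above it, and Crh, Nts and Galr1 lie below it.

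Markers of cell types moved with the groups, and their part in the peptide changes was not tested. The 7 identified of 14 pan-neuronal markers summed to 19863 and 22237 CPM in naïve males, 32345 and 33351 CPM in CCI males, 24227 and 25219 CPM in naïve females, and 25762 and 30566 CPM in CCI females. In males 6 of the 7 were called higher (median log2FC 0.63), where 9.05% of all genes were. In females 1 of the 7 was (median 0.12), where 3.69% of all genes were. These 7 had symbols from the study's own tests and were in part selected by how they moved. Whether the neuronal share of the reads rose in males was therefore not tested. Scaled to these 7 markers, an alternative added after seeing the data with markers from the study's own tables, the median of all genes moved to -0.66 in males and -0.19 in females. On that scale Gal, Vip and Adcyap1 still rose, with log2FC of 1.91, 4.998 and 0.71 in males and 2.91, 5.45 and 1.70 in females. The interaction was then called for Gal (log2FC 0.996, adjusted p = 0.0343) and Adcyap1 (log2FC 0.99, adjusted p = 0.0302), beside a median of 0.48 for all genes, while Galr1 lost its call in males (log2FC 0.47).

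The number of pathway genes called in males went on that scale from 32 to 13 higher and from 5 to 9 lower. Vesicle genes that lost their call included Scg2, Cadps and Pcsk2 (log2FC 0.39, 0.25 and 0.20), and Tac1 also lost its call (log2FC 0.41). On that scale, which sets the summed level of these markers equal in all libraries, Gal, Vip and Adcyap1 were called in males and Cadps and Pcsk2 were not. The scale also moved the median log2FC of all genes in males to -0.66, so these changes of call do not test the neuronal share.

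Schwann cell markers (5 identified of 8, Mbp and Sox10 among them) summed to 9819 and 11980 CPM in naïve males, 2913 and 3038 CPM in CCI males, 6623 and 8258 CPM in naïve females, and 3559 and 4672 CPM in CCI females, with 5 called lower in males and 2 in females. Muscle markers (5 of 8) summed to 35.3 and 41.4 CPM in naïve males, 90.5 and 97.1 CPM in CCI males, 42.6 and 46.5 CPM in naïve females, and 25.0 and 27.0 CPM in CCI females, with 5 called higher in males and 2 lower in females. The CCI males were the highest group for muscle markers, as for Galr1. They were the lowest for Schwann cell markers, whose sums were also lower in CCI females than in naïve females. Fibroblast markers (4 of 6) were called lower in males for 4 and in females for none, at 1779 to 1829 CPM in CCI males and 2489 to 2983 CPM elsewhere.

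Red blood cell markers (7 of 7) differed within a group, at 130 and 1388 CPM in the 2 naïve males, and were 1351 to 2029 CPM in naïve females, 222 and 252 CPM in CCI males and 168 and 212 CPM in CCI females, with 7 called lower in females and none in males. Mast cell markers (3 of 7) were lowest in CCI males, at 0.771 to 0.887 CPM against 3.49 to 6.14 CPM elsewhere, and 3 were called lower in males. The satellite glia marker Fabp7 (1 of 6) was called lower in both sexes, and the B cell marker Cd79b (1 of 8) was called lower in females. The macrophage marker Cd163 (1 of 8) was called higher in CCI females than in CCI males. In that comparison 2 Schwann cell, 2 mast cell and 2 fibroblast markers were also called higher, and 5 muscle markers and 1 red blood cell marker lower. None of the 7 neuronal markers was called there, where 0.524% of all genes were called higher and 0.536% lower. Of 10 markers of neuron subtypes 3 were identified, with 1 called higher in males and 1 lower in females. None of the 6 endothelial and 6 autonomic neuron markers could be tied to an identifier. No identified marker was at 0 in any library.

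Across the 8 libraries, log2 CPM of Gal and Vip had a Pearson's r of 0.98, Gal and Adcyap1 of 0.92, and Vip and Adcyap1 of 0.93, values that describe 4 groups set mainly by injury and carry no test. Among the 14104 genes whose log2 CPM averaged 0 or more, the gene most like Gal was ENSRNOG00000027191 (r = 0.996), the gene most like Vip was ENSRNOG00000023376 (r = 0.998), and the gene most like Adcyap1 was ENSRNOG00000031126 (r = 0.996), none of which has a symbol in the sources used here. Likeness of pattern did not mean likeness of size. ENSRNOG00000023376 had a log2FC of 0.22 in males and 0.23 in females, where Vip had 5.65 and 5.62. ENSRNOG00000031126 had 2.24 and 2.66, called in both sexes, where Adcyap1 had 1.36 and 1.87. Gadd45a, a stress-induced growth arrest gene, followed Vip as the gene of rank 3 (r = 0.996), with a log2FC of 1.05 in males and 1.22 in females, both called.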

How the data were processed

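RNA-seq of 8 rat DRG libraries, 2 rats per group, was analysed from the deposited table. The study selected poly(A) RNA for directional libraries and paired-end sequencing, aligned the reads to rn6 with HISAT2 (CASAVA 1.8.2 is also named in the submitters' processing notes), filtered out ribosomal reads and ran featureCounts on Ensembl genes. The authors deposited raw counts without normalization. All columns were used.

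Genes were kept by filterByExpr (minimum count 10, minimum total 15) and tested with edgeR 4.0.16 in R 4.3.3 (glmQLFit and glmQLFTest, TMM), each comparison on its 4 libraries and the interaction on all 8, at an adjusted p under 0.05 (Benjamini-Hochberg) and, except for the interaction, an absolute log2FC above 0.5. SEs were derived from log2FC and the F statistic, intervals are at 95%, and a prior count of 2 entered log2 CPM. The fits were tested on simulated data. Alternatives were DESeq2 1.42.0, a fit over all 8 libraries, DESeq2's size factors, upper-quartile normalization, other filters on low counts, the replicate number as a block, scaling to neuronal markers, and leaving out each library.

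The members and lists were chosen with earlier results of these data known. Named genes are the 3 peptides, their receptors, up to 4 called genes per list and sex with the largest absolute log2FC, and the genes nearest in pattern. Symbols came from the paper's tables, which pair 1961 identifiers with a symbol. Promoters came from RefSeq (GRCr8), where Gal, Vip and Adcyap1 matched by symbol.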

Additional observations from a re-analysis of the deposited data

Results flagged for a closer look

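Of the 3 peptides and the pathway genes named, 5 pathway genes and none of the peptides changed differently after CCI in the 2 sexes by edgeR's interaction term (log2FC in females minus that in males). The 5 were among 43 pathway genes tested, and the term called 1.59% of all genes. Symbols of the 43 came from the study's own tests, so their calls were in part selected. Nts differed by -1.71 (adjusted p = 0.0483), with a log2FC of 2.34 in males and 0.62 in females. Socs3 differed by 1.28 (adjusted p = 0.0483), with 0.02 in males and 1.29 in females. Adcy6 differed by 0.79 (adjusted p = 0.0430), with -1.02 in males and -0.24 in females. Atf3 differed by 0.78 (adjusted p = 0.0412), with 2.61 in males and 3.37 in females. Csf1 differed by 0.64 (adjusted p = 0.0496), with 0.60 in males and 1.23 in females. All 5 adjusted p lie between 0.04 and 0.05, and leaving out 1 library usually ended the call, with adjusted p of up to 0.190. Adcy6 and Atf3 kept it only without naïve male 2 or naïve female 2, Nts and Csf1 only without naïve female 2, and Socs3 lost it without each of the 8 libraries.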

How the results depend on the processing

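Gal, Vip and Adcyap1 rose in both sexes under DESeq2, a fit over all 8 libraries, both other normalizations, no filter on low counts and neuronal scaling. Requiring 10 counts in every library removed Vip, with 9 in a naïve male. Neuronal scaling was planned for 10 or more markers and not run so. With 7, added after seeing the data, it moved pathway calls in males to 13 higher and 9 lower and in females to 4 lower, and gave interactions of 0.996 for Gal, 0.99 for Adcyap1 and 0.45 for Vip (adjusted p = 0.411, sign reversed), and -0.63 for Adcyap1 in naïve sexes (adjusted p = 0.0487). Csf1 in males turned to -0.051 and Socs3 to -0.63 on that scale, and Socs3 to -0.0031 with 10 counts in every library. Pathway calls lower in females were 1 by DESeq2 and 1 without a filter. The Adcyap1 interaction was called by DESeq2 (0.51, adjusted p = 0.0128) and without a filter (0.51, adjusted p = 0.0490). A fit over all 8 libraries called Gal (0.66, adjusted p = 0.0485) and Vip (1.31, adjusted p = 0.0273) in naïve sexes.

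Leaving out each library gave a log2FC of 2.51 to 2.60 for Gal, 5.34 to 6.03 for Vip and 1.28 to 1.43 for Adcyap1 in males, 1.01 to 1.40 for Gal and 1.24 to 1.35 for Vip between CCI sexes, and -0.40 to 0.29 for the Vip interaction. Pathway calls ranged from 0 to 33 higher and 0 to 5 lower in males and 0 to 2 lower in females. Socs3 in males was from -0.0013 (without naïve male 1) to 0.041, and Crh in females from -3.12 (without CCI female 1) to 4.46. For most of these changes the cause was not tested, while each left-out library removes residual degrees of freedom by construction.

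Deviations of same-numbered libraries correlated at 0.731 between naïve and CCI males and from -0.0200 to 0.142 otherwise. In males the number thus goes with something shared, which was not identified, while over all groups it was not taken as a pairing. With the replicate number as a block, the log2FC was 2.56 for Gal, 5.66 for Vip and 1.36 for Adcyap1 in males and 3.09, 5.62 and 1.88 in females, 2 pathway genes were called lower in females, no call of a peptide changed, Galr1 between CCI sexes (adjusted p = 0.0824) and the Nts and Csf1 interactions (adjusted p = 0.0538 for both) were lost, and Pde4c in females was gained (adjusted p = 0.0480). With 2 rats per group, where an interval given includes 0, a difference inside it cannot be told from none here.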
